A study of Mus musculus with 6 samples.

Results

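The genes Dbp, Tef, Hlf and Nfil3 encode the transcription factors that bind the D-box, a short DNA element of the circadian clock. They were chosen by name, and every peak whose summit lay inside one of them or within 10 kb was taken from lists of anti-BMAL1 ChIP-seq peaks in mouse retina. ChIP-seq sequences DNA recovered with an antibody, and reads are expected to pile up into peaks where its target was bound. A listed peak alone does not show that BMAL1 was bound there. The 4 genes are among 21896 protein-coding genes of the RefSeq table used here (assembly GRCm38.p6, the mm10 coordinates of the lists), and they held 34 of the 320474 peaks of the 6 lists. The retinas of 3 wild-type animals (Control 1 to 3) were compared with those of 3 animals carrying a conditional Bmal1 knockout (Bmal1 CKO 1 to 3), 1 library each. All were C57BL/6 mice that received no external treatment and were weaned at postnatal day 20. The labels do not give the age or time of day at collection, nor the cells in which the gene was deleted. A peak list does not measure RNA, so neither the loss of Bmal1 nor the retinal identity of the tissue could be checked on marker genes.

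BMAL1 and its partner CLOCK activate genes through the E-box, the sequence CACGTG, and Dbp is a classical direct target with E-boxes in its promoter and introns. DBP, TEF and HLF are activators of the PAR bZIP family, and NFIL3 (also called E4BP4) is a repressor that competes for the same D-box. Through D-boxes in Per genes the 4 factors feed back on the clock, and through other targets they pass its rhythm on to metabolism.

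The lists differed in length and depth. Control 1 held 179475 peaks and Bmal1 CKO 2 held 138254, whereas the other 4 held 372 to 1444. The genome-wide background, solved from the deposited fold and p-value of each peak, was 3.46 fragments per base for Control 1 and 5.83 for Bmal1 CKO 2. It was 2.78 for Bmal1 CKO 1 and 0.560 to 0.852 for the other 3 libraries. It serves here as a measure of relative depth. All 34 peaks at the D-box factor genes came from Control 1 and Bmal1 CKO 2, which are the long lists and belong to different genotypes. Each statement about a genotype below therefore rests on a single library of it.

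Tef is shown first because both of its annotated starts carry an E-box under a peak found in both long lists. RefSeq (GRCm38.p6) gives the gene 2 starts on the plus strand of chromosome 15, at 81802673 and 81811414. The windows below run from 250 bases before to 50 bases after each start, chr15:81802423-81802722 and chr15:81811164-81811463, and capitals mark CACGTG.
Tef, upstream start: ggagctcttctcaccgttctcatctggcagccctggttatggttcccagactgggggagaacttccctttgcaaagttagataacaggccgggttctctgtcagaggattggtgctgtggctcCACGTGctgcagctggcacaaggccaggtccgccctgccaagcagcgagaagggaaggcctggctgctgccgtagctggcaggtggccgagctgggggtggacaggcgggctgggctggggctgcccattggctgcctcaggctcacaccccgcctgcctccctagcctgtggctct
Tef, downstream start: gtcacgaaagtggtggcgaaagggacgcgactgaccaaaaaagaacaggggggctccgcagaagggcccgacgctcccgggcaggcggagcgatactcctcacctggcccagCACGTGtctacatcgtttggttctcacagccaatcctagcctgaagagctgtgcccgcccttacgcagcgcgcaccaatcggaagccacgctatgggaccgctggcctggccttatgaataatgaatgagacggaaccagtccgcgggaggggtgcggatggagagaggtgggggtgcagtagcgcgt

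At the upstream start the E-box covers bases 81802546 to 81802551, and its first base lies 127 bases before the start. Both Control 1 and Bmal1 CKO 2 listed a peak that contained it, with the summit at the same base, 81802603, 54.5 bases from the centre of the E-box. At the downstream start the E-box covers bases 81811276 to 81811281, 138 bases before the start. There Bmal1 CKO 2 had a summit at 81811279, 0.5 bases from the centre of the E-box, inside a peak at chr15:81811189-81811811. The Control 1 peak at chr15:81810689-81811886 also contained this E-box, but its summit at 81811006 lay 272.5 bases away. The summit nearest this E-box was thus listed in a knockout library. The Control 1 peak also spanned another Bmal1 CKO 2 peak, whose fold was higher (3.02 against 2.65 at the E-box). Its summit at 81810962 lay 44 bases from the Control 1 summit. Each peak is listed with a single summit, so these positions do not show whether signal at the E-box differed between the libraries.

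An E-box was present in 7.15% of all 32851 windows of this length in the promoter table and in 2 of the 5 windows of the D-box factor genes, both at Tef. It was found in 10.3% of the 6313 windows that held a Control 1 summit, in 10.8% of the 5748 that held a Bmal1 CKO 2 summit and in 5.84% of the 23645 that held neither. Windows with a summit were also richer in G and C, with a median of 63.0% in Control 1 and 62.3% in Bmal1 CKO 2 against 49.3% in windows with neither, and the part of base composition in these shares was not tested. The E-box-like CACGTT was in none of the 5 windows (4.68% of all windows, both strands counted). The D-box sequences TTATGTAA, TTACGTAA and TTATATAA, likewise searched on both strands, were in none of them (0.938%, 0.119% and 0.554% of all windows). No 2 of these motifs matched the same bases in the 5 windows. A match is only a run of letters, and an absent one concerns this window alone.

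Dbp and Hlf are shown next because a promoter summit lay inside the window of each, with no CACGTG there. The Dbp window is chr7:45704997-45705296 on the plus strand, with the start at 45705247. That of Hlf is chr11:90390868-90391167 on the minus strand, with the start at 90390917. Capitals mark the 21 bases centred on the Bmal1 CKO 2 summit.
Dbp: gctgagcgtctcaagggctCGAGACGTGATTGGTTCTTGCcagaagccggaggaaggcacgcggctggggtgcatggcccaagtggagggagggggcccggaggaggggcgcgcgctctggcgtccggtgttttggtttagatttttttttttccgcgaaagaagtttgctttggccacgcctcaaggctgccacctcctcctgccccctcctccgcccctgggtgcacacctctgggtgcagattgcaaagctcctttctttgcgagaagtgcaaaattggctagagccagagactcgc
Hlf: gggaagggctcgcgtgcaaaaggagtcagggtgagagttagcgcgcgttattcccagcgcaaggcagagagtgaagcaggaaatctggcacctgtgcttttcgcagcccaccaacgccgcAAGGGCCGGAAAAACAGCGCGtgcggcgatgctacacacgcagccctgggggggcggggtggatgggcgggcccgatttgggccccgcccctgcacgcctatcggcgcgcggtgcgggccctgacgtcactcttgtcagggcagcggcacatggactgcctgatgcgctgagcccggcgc

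In number of peaks, Control 1 listed 23 and Bmal1 CKO 2 listed 11 at the 4 genes, and the 4 short lists held 0. Each of the 4 genes had at least 1 peak in Control 1 and in Bmal1 CKO 2. This is the usual case in these lists: 92.6% of protein-coding genes had a summit inside or within 10 kb in Control 1, 87.8% did in Bmal1 CKO 2 and 85.8% in both. A gene with such a summit was rare in the short lists, with shares of 0.776% (Control 2), 0.754% (Control 3), 2.04% (Bmal1 CKO 1) and 1.07% (Bmal1 CKO 3). On the scale of log10(number of peaks + 1) the mean was 0.460 ± 0.797 in controls and 0.360 ± 0.623 in knockout libraries (SD, n = 3 each). The difference of −0.100 was smaller than the spread within either genotype (exact permutation test, two-sided, p = 1, where 3 against 3 libraries cannot go below 0.10). The sign of this difference turned without Control 1 (0.360), and without Bmal1 CKO 1 or Bmal1 CKO 3 (0.0795 each). With 0 peaks in 4 of 6 libraries the test cannot show whether genotype matters.

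**Figure D1:**
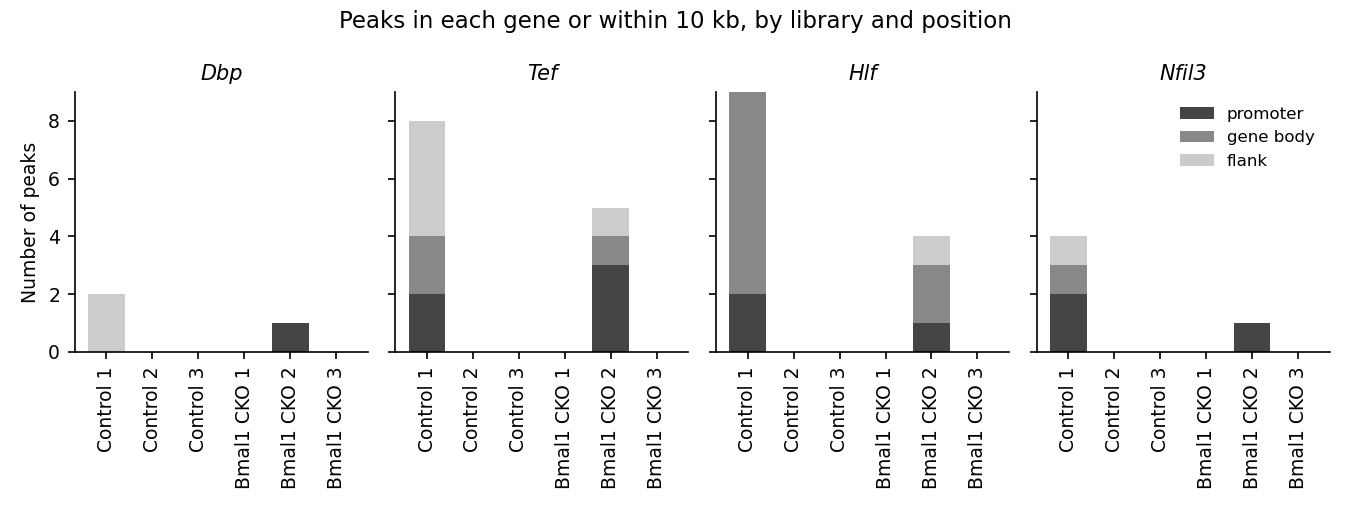
Number of peaks (vertical axis) in each of the 4 genes or within 10 kb, for the 6 libraries, split into promoter (within 1 kb of an annotated start), gene body and flank. Bars stand only at Control 1 (2, 8, 9 and 4 peaks at Dbp, Tef, Hlf and Nfil3) and Bmal1 CKO 2 (1, 5, 4 and 1); the other libraries are at 0.

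By position, 6 of the 23 Control 1 peaks lay within 1 kb of an annotated start, 10 elsewhere inside a gene and 7 in the flanks. Of the 11 Bmal1 CKO 2 peaks, 6 lay at a promoter, 3 inside a gene and 2 in a flank. The gene table gives no exons, so peaks inside a gene are not split into exonic and intronic ones. Control 1 had a promoter peak at Tef, Hlf and Nfil3 and Bmal1 CKO 2 at all 4 genes, where 69.2% and 59.7% of the 17491 protein-coding genes with an annotated start had one. Promoter peaks in both long lists, as at Tef, Hlf and Nfil3, occurred at 56.3% of those genes. In the short lists 0.04% (Control 2), 0.0457% (Control 3), 0.217% (Bmal1 CKO 1) and 0.0972% (Bmal1 CKO 3) had a promoter peak, and none of the 4 genes was among them. A promoter peak in Bmal1 CKO 2 without one in Control 1, as at Dbp, occurred at 3.45% of those genes, and the opposite at 12.9%.

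Overlap by at least 1 base joined 8 of the 23 Control 1 peaks (34.8%) and 8 of the 11 Bmal1 CKO 2 peaks (72.7%). The count in each list was 5 when at least 50% of both peaks had to overlap and 2 among peaks with a −log10 q-value no lower than 5. Among all peaks in or within 10 kb of protein-coding genes these shares were 40.9% and 56.7%, so the shares at the 4 genes lay on either side of the background. At promoters 4 of 6 Control 1 peaks and 5 of 6 Bmal1 CKO 2 peaks recurred, beside 70.9% and 89.4% of all promoter peaks of those lists. Inside genes 2 of 10 Control 1 peaks and 2 of 3 Bmal1 CKO 2 peaks recurred, and in the flanks 2 of 7 and 1 of 2, where 36.3% and 50.6% of all peaks near genes but away from promoters did. Merged, the 34 peaks formed 25 regions, of which 7 were in both lists, 15 in Control 1 alone and 3 in Bmal1 CKO 2 alone. Regions were not merged over all genes, so these counts have no background share beside them. The 7 shared regions were 4 at Tef, 2 at Hlf and 1 at Nfil3, with none at Dbp. Summits of the 9 overlapping peak pairs lay 0 to 273 bases apart, with a median of 44 bases.

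**Figure D2:**
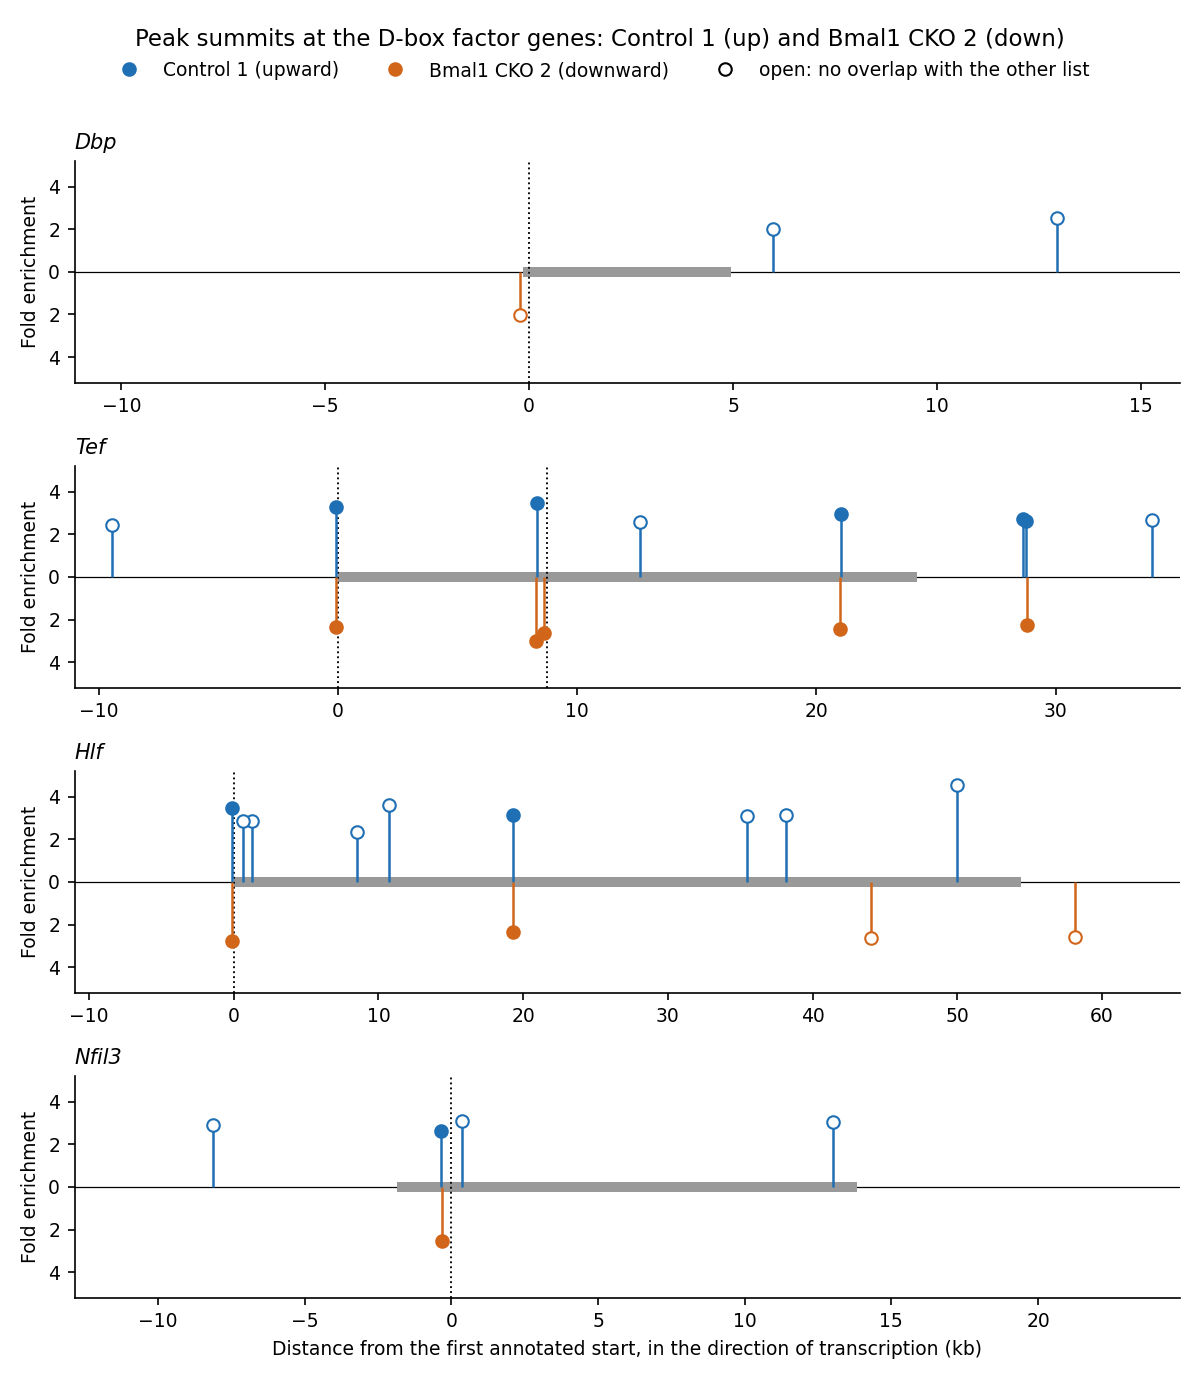
Fold enrichment at each summit (vertical axis; Control 1 drawn upward, Bmal1 CKO 2 downward) against the distance in kb from the first annotated start, for the 4 genes. Grey bars are the annotated genes, dotted lines the starts, filled circles peaks that overlap a peak of the other list. Tef has filled circles at both starts, Hlf and Nfil3 have 1 filled promoter circle in each list, and Dbp has only open circles.

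Dbp (chromosome 7, 45705100 to 45710203, plus strand) had no summit between its annotated ends in any library. Its promoter peak was listed in Bmal1 CKO 2 at chr7:45704920-45705148. The summit at 45705026 lay 221 bases before the annotated start, with a fold enrichment of 2.03. The fold is the authors' value and compares the summit with the local background of its own library. Control 1 listed 2 peaks downstream of Dbp. The nearer summit, at 45711231 with a fold of 2.03, lay 1028 bases past the end of Dbp and inside the neighbouring Sphk2, which encodes a sphingosine kinase. The other, at 45718195 with a fold of 2.51, lay 7992 bases past the end and 124 bases from an annotated start of the ribosomal protein gene Rpl18. None of the 3 peaks recurred in the other long list. A gene with no summit between its annotated ends in either long list was common, at 17.1% of all protein-coding genes and 38.9% of the 7938 that span at most 10 kb.

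Low folds at or near Dbp went with many fragments over a high background. The Bmal1 CKO 2 promoter peak stacked 43 fragments, more than any other peak at the 4 genes in that library, over a local background of 20.7 fragments per base. The Control 1 peaks stacked 34 and 37 fragments over backgrounds of 16.2 and 14.1. These backgrounds were 3.54 times the genome-wide level in Bmal1 CKO 2 and 4.69 and 4.08 times in Control 1. Among all peaks of their lists they stood at percentile 99.6, 99.7 and 99.4 for background and at percentile 97.4, 94.4 and 96.8 for fragments. By fold the same peaks stood at percentile 0.377, 0.106 and 4.75. The rank of these peaks thus depended on the measure: near the top by fragments and near the bottom by fold. Only the Bmal1 CKO 2 peak lay at the Dbp promoter. The Control 1 summits lay inside the neighbouring genes Sphk2 and Rpl18. Fragments and fold are tied through the background, so these ranks are not separate results.

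Peaks at the other D-box factor genes also lay in places of raised background, at lower levels than those at or near Dbp. None of the 23 Control 1 peaks and none of the 11 Bmal1 CKO 2 peaks had the genome-wide background, which 33.0% and 38.3% of all peaks in those lists had. The background ranged from 1.55 to 4.69 times the genome-wide level in Control 1 (median 2.51) and from 1.42 to 3.54 times in Bmal1 CKO 2 (median 2.18). Over all peaks the medians were 1.26 and 1.12 times. The median number of stacked fragments was 26 in Control 1 and 35 in Bmal1 CKO 2, against 20 and 23 over all peaks. The median fold was 2.89 and 2.53, against 3.54 and 2.96. By their medians, peaks at the 4 genes were thus higher in fragments and lower in fold than the lists as a whole, with exceptions. Hlf had 17 fragments at 90382368 and folds of 4.56 and 3.60 at 90340912 and 90380216 in Control 1. In Bmal1 CKO 2 it had 23 fragments at 90332793, the median of the list, and Tef had a fold of 3.02 at 81810962. In or within 10 kb of protein-coding genes lay 107953 of 179475 Control 1 peaks and 80640 of 138254 Bmal1 CKO 2 peaks. Medians of fragments and background over those peaks alone were not taken. Whether the raised values are common to peaks near genes was not tested.

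**Figure D3:**
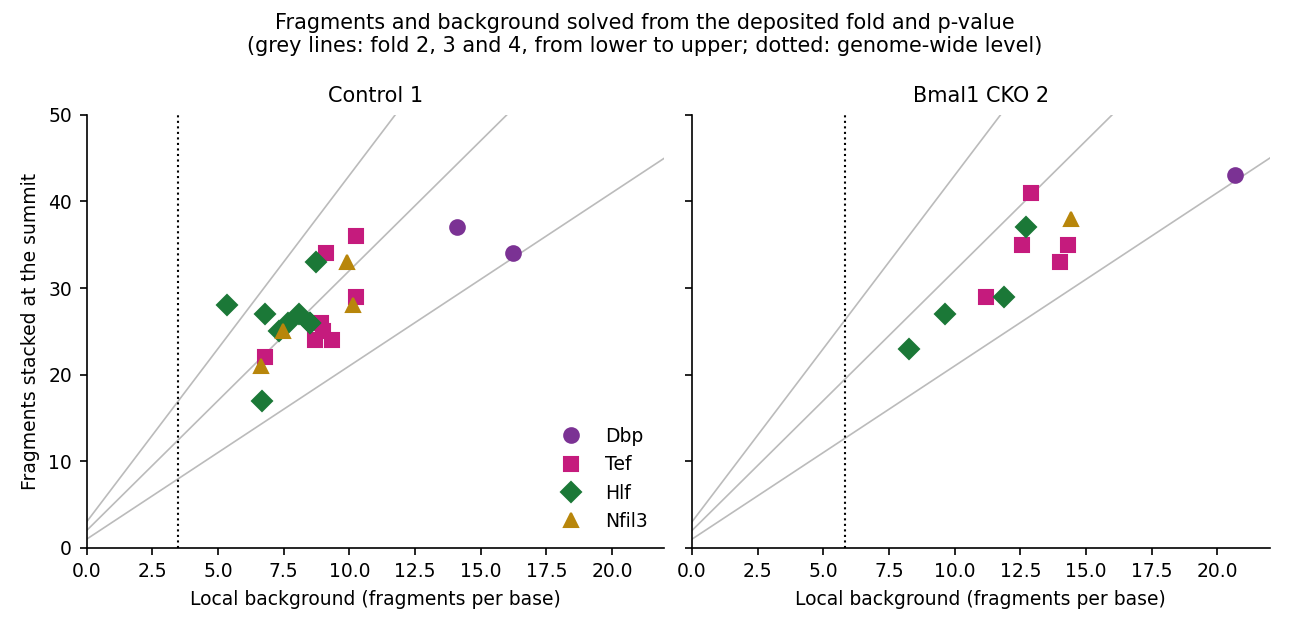
Fragments stacked at the summit (vertical axis) against the local background in fragments per base (horizontal axis) for the 23 Control 1 peaks and the 11 Bmal1 CKO 2 peaks, by gene. The Dbp points lie farthest right in each panel, and every point lies right of the dotted genome-wide level of 3.46 or 5.83.

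Tef (chromosome 15, 81802673 to 81826863, plus strand) had 8 peaks in Control 1 and 5 in Bmal1 CKO 2, and all 5 of the latter overlapped a Control 1 peak. The upstream promoter peak spanned 840 bases in Control 1, with a fold of 3.29 from 36 fragments over a background of 10.2. In Bmal1 CKO 2 it spanned 223 bases, with a fold of 2.35 from 35 fragments over a background of 14.3. These fragment counts and backgrounds are not on a common scale, because the genome-wide backgrounds of the libraries were 3.46 and 5.83. Relative to that level the local background was 2.96 times in Control 1 and 2.46 times in Bmal1 CKO 2. The shared summit lay 10 bases from the annotated start of the noncoding RNA gene Gm17597, whose annotated span contains it. The peak therefore cannot be given to either gene.

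The downstream Tef promoter carried the highest Tef fold of both lists. In Control 1 it was a single peak of 1198 bases, wider than 99.3% of that list, with a fold of 3.46 from 34 fragments over a background of 9.12. Bmal1 CKO 2 listed 2 peaks within it. The upstream of these had its summit at 81810962, 452 bases before the start, with a fold of 3.02 from 41 fragments over a background of 12.9. The other was the E-box peak, 135 bases before the start, with a fold of 2.65 from 35 fragments over a background of 12.6.

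Away from its promoters, Tef had a shared peak inside the gene, 3143 bases from its far end in Control 1 (summit 81823720, fold 2.96) and 3214 bases from it in Bmal1 CKO 2 (81823649, fold 2.46). A shared region also lay past the end of the gene. There Control 1 listed summits 4428 and 4586 bases downstream, with folds of 2.72 and 2.61, and Bmal1 CKO 2 listed a summit 4631 bases downstream, with a fold of 2.26. The remaining 3 Control 1 peaks, at 81793217 within the neighbouring gene Zc3h7b, at 81815323 inside Tef and at 81836715 in the downstream flank, had folds of 2.41, 2.58 and 2.67 and no counterpart. With its flanks Tef held 1.81 peaks per 10 kb in Control 1 and 1.13 in Bmal1 CKO 2, at percentile 91.1 and 82.4 of all protein-coding genes, the densest of the 4 genes in both lists.

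Hlf (chromosome 11, 90336535 to 90390917, minus strand), the longest of the 4 genes, had 9 peaks in Control 1 and 4 in Bmal1 CKO 2. Its promoter summits lay 107 bases before the start in Control 1 (90391024, fold 3.49 from 33 fragments over a background of 8.74) and 120 bases before it in Bmal1 CKO 2 (90391037, fold 2.77 from 37 fragments over 12.7). The summits were 13 bases apart. Control 1 had a further promoter summit 647 bases after the start and a summit 1254 bases after it, both with a fold of 2.84, and neither recurred.

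Inside Hlf a peak 19297 bases from the start in Control 1 (fold 3.12) recurred 28 bases away in Bmal1 CKO 2 (fold 2.33). The highest fold at any D-box factor gene was 4.56, at 90340912 in Control 1, inside the gene and 4377 bases from its far end. This peak stacked 28 fragments over the lowest background at the 4 genes in that list, 5.36, and Bmal1 CKO 2 listed no peak that overlapped it. Its −log10 q-value of 8.90 was likewise the highest at the 4 genes. The other 4 Control 1 summits inside the gene, at 90352722, 90355443, 90380216 and 90382368, had folds of 3.12, 3.08, 3.60 and 2.34. Bmal1 CKO 2 listed 2 places that Control 1 did not, one inside the gene at 90346876 with a fold of 2.64 and one 3742 bases past its far end with a fold of 2.59. Most peaks away from the Hlf promoter were thus found in 1 long list alone, which is the usual case for Control 1 peaks near genes (36.3% shared, beside 50.6% in Bmal1 CKO 2).

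Nfil3 (chromosome 13, 52967209 to 52982878, minus strand) had 4 peaks in Control 1 and 1 in Bmal1 CKO 2. The only annotated start in the promoter table, at 52981039, lies inside the annotated gene span. Before this start both lists had a summit, 346 bases away in Control 1 (52981385, fold 2.60 from 28 fragments over a background of 10.1) and 318 bases away in Bmal1 CKO 2 (52981357, fold 2.53 from 38 fragments over 14.4). Measured from the upstream end of the gene span instead, no summit of either long list lay within 1 kb. The promoter call at Nfil3 thus depends on the start used in both lists. Control 1 alone had a second promoter summit 349 bases after the start, with a fold of 3.11. Control 1 alone also had a summit 816 bases inside the far end of the gene, with a fold of 3.07, and another 6274 bases upstream of the gene span, within the noncoding RNA gene Gm33424, with a fold of 2.89. The Nfil3 promoter window was the richest of the 5 in G and C, at 81.7% (percentile 99.4 of all windows), against 60.3% at Dbp, 67.3% at Hlf, and 64.0% and 62.0% at the Tef starts.

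Among promoter peaks of the same list, those of the D-box factor genes were ordinary or low in fold. In Control 1 the 6 promoter peaks stood between percentile 11.2 (Nfil3, fold 2.60) and 43.3 (Hlf, fold 3.49), with the list's median promoter fold at 3.69. In Bmal1 CKO 2 the 6 stood between percentile 0.900 (Dbp, fold 2.03) and 53.1 (the upstream of the peaks at the downstream Tef start, fold 3.02), with a median of 2.95. Folds were lower in Bmal1 CKO 2 than in Control 1 in all 9 overlapping pairs, as was the median fold of the whole list. Folds of lists that differ in depth cannot show whether binding differed, and with 1 library of each genotype the difference has no replicate check.

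**Figure D4:**
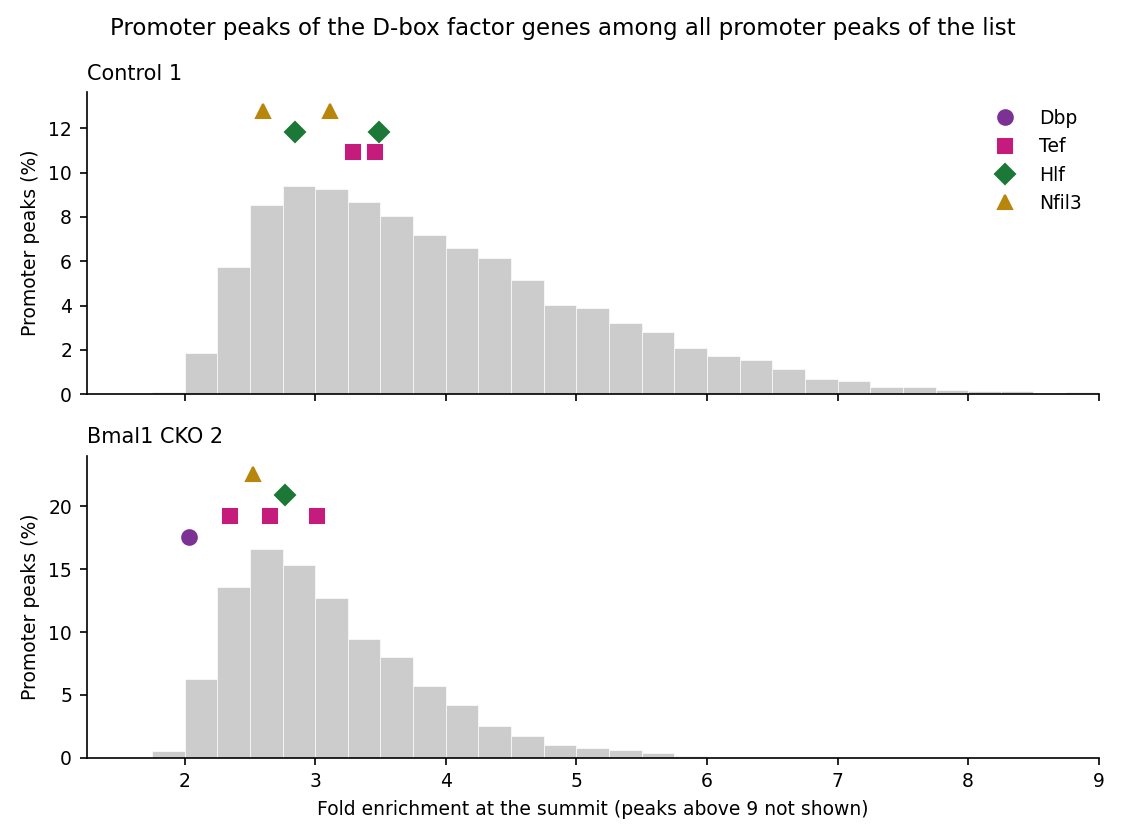
Fold enrichment (horizontal axis) of the promoter peaks at the 4 genes (symbols, set at arbitrary heights) above the distribution of all promoter peaks of the same list (grey, percent per 0.25 of fold). The symbols lie between 2.60 and 3.49 in Control 1 and between 2.03 and 3.02 in Bmal1 CKO 2, on the lower side of or near the middle of each distribution.

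The peaks were also set at the depth of the short lists. Each peak's fragments (rounded down) and background were multiplied by the ratio of the genome-wide backgrounds, and the resulting Poisson p-value was set beside the weakest peak of the shorter list. Scaled to Control 2, Control 3 and Bmal1 CKO 3, 0 of 23 Control 1 peaks and 0 of 11 Bmal1 CKO 2 peaks reached the lowest deposited −log10 p-value of those lists, which was 6.76, 6.20 and 5.05. Scaled to Bmal1 CKO 1, with a lowest value of 5.45, 11 of 23 Control 1 peaks and 0 of 11 Bmal1 CKO 2 peaks reached it. The 11 were 6 of 9 at Hlf, 2 of 8 at Tef, 2 of 4 at Nfil3 and 1 of 2 at Dbp, and Bmal1 CKO 1 listed none of them. Its list was short as a whole, with a promoter peak at 0.217% of protein-coding genes with an annotated start. The same scaling was not applied to all peaks of the long lists. Whether 11 of 23 differs from the share over all Control 1 peaks is therefore not known. The scaling uses no counting error.

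**Figure D5:**
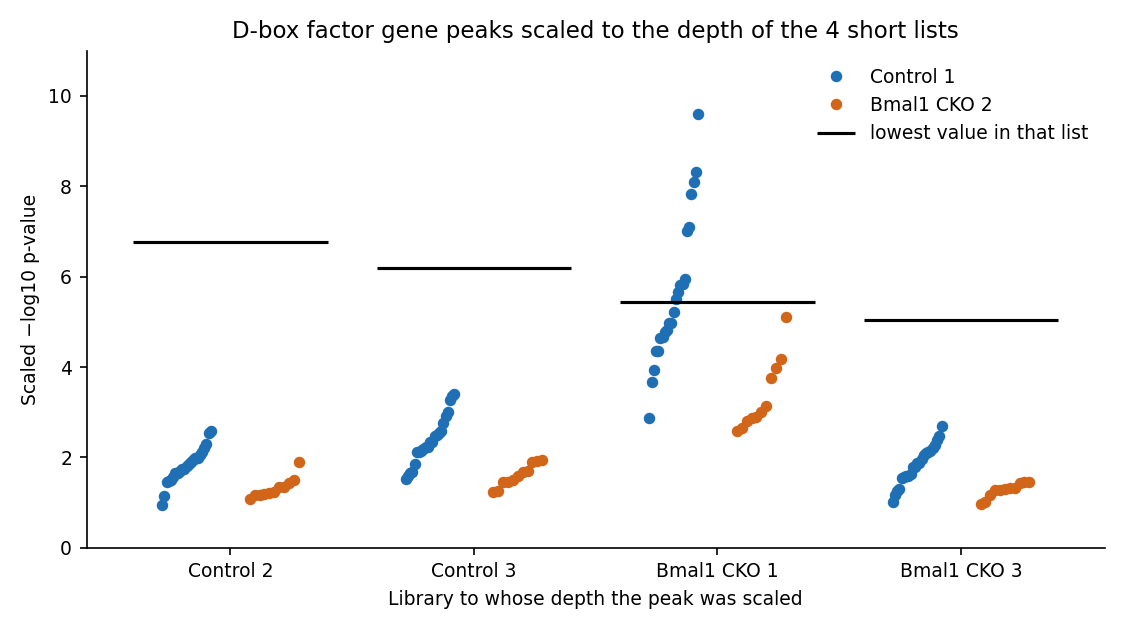
Scaled −log10 p-value (vertical axis) of the 23 Control 1 and 11 Bmal1 CKO 2 peaks at the depth of each short list (horizontal axis), with a black line at the lowest value deposited in that list. Points lie above the line only for Control 1 peaks scaled to Bmal1 CKO 1, where 11 of 23 do.

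The D-box factor genes were set beside other genes of the clock, without a test. All 17 core clock genes had a summit inside or within 10 kb in both long lists. Of the 14 with an annotated start, 13 had a promoter peak in Control 1, 11 in Bmal1 CKO 2 and 11 in both, beside 69.2%, 59.7% and 56.3% of all genes with a start. Among the same 17 genes, 8 are known to carry D-boxes, so they are not a separate comparison. Of these 8, 7 had an annotated start, and 7 of these had a promoter peak in Control 1 and 6 in Bmal1 CKO 2. None of the 17 genes had a peak in a short list. The median density of the 4 D-box factor genes was 1.17 peaks per 10 kb in Control 1 and 0.468 in Bmal1 CKO 2. For the 17 core clock genes it was 1.22 (quartiles 0.874 and 1.47) and 0.729 (0.510 and 1.30), and over all protein-coding genes 0.963 and 0.650. Hlf had 1.21 and 0.538, Nfil3 had 1.12 and 0.280, and Dbp had 0.797 and 0.398. Tef thus lay above the core clock quartiles in Control 1, Dbp lay below them in both lists and Nfil3 in Bmal1 CKO 2. Tef and then Hlf were densest in both lists, and the lowest of the 4 was Dbp in Control 1 and Nfil3 in Bmal1 CKO 2. With 1 library behind each order, no spread can be given for it.

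By the distance between densities over the 6 libraries, the core clock genes most like Dbp were Arntl2 (0.124 peaks per 10 kb) and Npas2 (0.155). The gene most like Nfil3 was again Npas2 (0.223). Tef had no such near neighbour, with Bhlhe41 at 0.480 and Nr1d2 at 0.481. Because 4 libraries are at 0 for all of these genes, likeness rests on Control 1 and Bmal1 CKO 2 alone.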

How the data were processed

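Anti-BMAL1 ChIP-seq was deposited as 1 peak list for each of 6 retinal libraries. Per the submitters' processing notes, Trim Galore, Bowtie2 and MACS2 were used with the genome build mm10. Neither versions and parameters nor whether an input served as background is given in the sources used here. The authors deposited, per peak, a fold ratio over the local background, a −log10 p-value and −log10 q-value, the summit offset and a score (that q-value on the −log10 scale, multiplied by 10 and truncated). The series record alone ties each list to its library, and the lists are numbered otherwise in their names than the samples are in their titles. Which library each long list belongs to could not be checked from the lists. Peaks were called per library.

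Summits (1-based) were placed on RefSeq genes, and starts with their strand and sequence came from the RefSeq promoter table, in which all 4 genes were found, with 5 windows. It holds a start for 17491 of 21896 protein-coding genes. A promoter peak had its summit within 1 kb of a start, and shared peaks overlapped by at least 1 base. This use of starts was possible because the table gives strand. Fragments and background were solved from fold = (fragments + 1) / (background + 1) and the Poisson p-value, a reading of the peak caller's values that the sources do not state. Fragments came out whole within 0.02 for at least 99.6% of peaks in each library. The lowest solved background in Bmal1 CKO 3 was −0.029, a value that no real background can have. The solving step was also run on pairs simulated from the same formula, at backgrounds lower than most at the 4 genes. That run cannot show whether the peak caller used this formula. The genotypes were compared by exact permutation (two-sided, 20 assignments). Other values are descriptions with no test.

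All peaks at the 4 genes are reported. Promoter peaks, shared peaks and the highest fold of each gene and list are given in full. Likeness is the Euclidean distance in peaks per 10 kb to 17 core clock genes, of which some single results are not reported here. Members, lists and rules were chosen with earlier results of these data known. Alternatives were windows of 1 kb and 50 kb, promoter windows of 500 bases and 2.5 kb, a −log10 q-value of at least 5, other overlap rules, equal list lengths, peaks per 1000 listed, left-out libraries, a replicate block and, chosen after the data were seen, gene ends in place of starts. Python 3.11.15, NumPy 2.4.6, pandas 2.3.3, SciPy 1.17.1 and matplotlib 3.10.9 were used.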

Additional observations from a re-analysis of the deposited data

How the results depend on the processing

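The difference in log10(number of peaks + 1) at the 4 genes, −0.100, ranged from −0.460 to 0.360 when 1 library was left out, and it was 0 without the 2 long lists, where no peak is left. With the same-numbered libraries as a replicate block (sign-flip test over 3 pairs) it was −0.100 with an exact p of 1. The labels do not say that the numbers pair mice. Other windows, the q-value filter, the share per 1000 listed peaks and overlap of the window by any base kept its sign. Of the 8 shared peaks in each list, 5 remained shared by at least 50% reciprocal overlap and 2 with −log10 q-values no lower than 5 in both lists. With summits within 100 bases the count was 7, and with lists of equal length it was 8. Under that q-value limit 2 of 4 genes, Tef and Hlf, had a promoter peak in Bmal1 CKO 2, and the same 2 genes had any peak at all there. Control 1 counted 3 genes under every alternative, and the 4 short lists had 0. With gene ends in place of starts, a choice made after seeing the data, Bmal1 CKO 2 had 3 genes. By that rule Nfil3 counted in Control 1 only through the summit 816 bases inside its far end, which is not at its promoter. Both Control 1 peaks at Dbp were lost within 1 kb and under the q-value limit, as was the Bmal1 CKO 2 peak under that limit. The lists hold no reads, so weaker signal in the short lists could not be measured.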

Other observations

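The nearest relatives of the D-box factors in the bZIP class are the C/EBP genes. Of 6 such genes (Cebpa, Cebpb, Cebpd, Cebpe, Cebpg and Ddit3), 6 had a summit inside or within 10 kb in Control 1 and 4 in Bmal1 CKO 2, where 92.6% and 87.8% of all protein-coding genes did. Of the 4 with an annotated start, 3 had a promoter peak in Control 1 and 1 in Bmal1 CKO 2, beside 69.2% and 59.7% of all genes with a start. Of 3 known output genes of the PAR bZIP factors, Alas1 (heme synthesis), Por (the electron donor of cytochrome P450 enzymes) and Nr1i3 (the nuclear receptor CAR), 3 had such a summit in the Control 1 list and 2 in that of Bmal1 CKO 2, and 2 had a promoter peak in both, as had 56.3% of all genes with a start. The short lists had none for either group.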
